A study of Mus musculus with 7 samples.

Results

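The hematopoietic transcription factor heptad (Gata2, Runx1, Tal1, Lyl1, Lmo2, Erg and Fli1) and 3 of its cofactors and partners (Ldb1, Cbfb and Spi1) were followed at the level of mRNA in bone marrow stem and progenitor cells with and without PROSER1, an interactor of the TET DNA demethylases. The 10 genes were chosen by name, as the rows of the deposited table that carry these symbols, and all 10 were found among the 48440 genes of the table. The cells were LSK cells, the lineage-negative, Sca1-positive and cKit-positive fraction of mouse bone marrow (BM) with hematopoietic stem cells (HSCs) and other multipotent cells. Recipient C57BL/6 mice, irradiated at a lethal dose (9.5 Gy), received unfractionated BM from wild-type donors or from donors with a constitutive endonuclease-mediated PROSER1 KO. Their LSK cells were sorted on day 77 and sequenced as polyadenylated RNA in 4 wild-type and 3 PROSER1 KO libraries. Both groups therefore share the irradiated C57BL/6 host, whose surviving cells would carry an intact PROSER1 gene. The knockout is present in all cells of the donor from the germ line onwards rather than being induced after transplantation. The sex and age of the animals, the number of animals behind each library and a selection of donor over host cells in this sort were not given in the sources used here, so that p-values describe the spread between these libraries.

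The heptad factors are regulators of transcription found together at many enhancers of blood stem and progenitor cells. GATA2 is a zinc finger protein that binds GATA motifs. TAL1 and LYL1 are related basic helix-loop-helix (bHLH) proteins that bind E-box motifs after pairing with widely expressed E proteins. ERG and FLI1 are related ETS-family factors, and RUNX1 binds DNA as the alpha subunit of core binding factor. LMO2 does not bind DNA itself and links the bHLH and GATA proteins to LDB1, which self-associates and can bring distant complexes into contact. CBFB is the beta subunit that stabilizes RUNX1 on DNA, and SPI1 (PU.1) is an ETS factor that drives the myeloid and B-lymphoid programs and is known to oppose GATA factors.

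To show what kind of sequence lies at the starts of these genes, promoter windows of 300 bases (250 before and 50 after each annotated start) were taken from RefSeq on GRCm38.p6. They covered 7 of the 10 members with 14 windows, and Lmo2, Fli1 and Spi1 had no entry. The 250 bases before the start are printed 5′ to 3′ for 4 members. Tal1 is shown because its libraries separated by genotype and Lyl1 because it is the close relative that did not separate. Erg and Ldb1 are shown because 1 window of each carries GATA letters, and that window was printed. The other windows of Erg and Ldb1, and the inner window of Tal1, hold no GATA letters. Capitals mark the letters searched on both strands, which are the GATA motifs AGATAA and TGATAA (in reverse TTATCT and TTATCA) and the ETS motifs CCGGAA and AGGAAG (in reverse TTCCGG and CTTCCT). The printed stretches held no base of an annotated exon.
Tal1, upstream of its outermost start, plus strand, chr4:115056176-115056425: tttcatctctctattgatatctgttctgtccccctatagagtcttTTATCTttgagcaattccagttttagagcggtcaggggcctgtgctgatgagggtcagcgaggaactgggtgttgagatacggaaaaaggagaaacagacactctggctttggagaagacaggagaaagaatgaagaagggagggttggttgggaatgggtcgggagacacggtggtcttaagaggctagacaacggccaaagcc
Lyl1, plus strand, chr8:84701207-84701456: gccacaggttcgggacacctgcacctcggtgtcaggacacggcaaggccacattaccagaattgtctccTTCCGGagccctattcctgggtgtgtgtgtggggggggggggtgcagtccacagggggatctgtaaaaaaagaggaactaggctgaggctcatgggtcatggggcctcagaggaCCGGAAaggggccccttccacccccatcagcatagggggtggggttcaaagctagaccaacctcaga
Erg, upstream of an internal start, minus strand, chr16:95459349-95459598: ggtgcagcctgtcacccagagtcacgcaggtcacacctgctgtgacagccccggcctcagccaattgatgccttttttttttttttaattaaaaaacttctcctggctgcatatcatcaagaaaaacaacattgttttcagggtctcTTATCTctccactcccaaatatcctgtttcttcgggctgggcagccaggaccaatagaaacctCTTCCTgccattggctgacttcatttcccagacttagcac
Ldb1, upstream of an internal start, minus strand, chr19:46037071-46037320: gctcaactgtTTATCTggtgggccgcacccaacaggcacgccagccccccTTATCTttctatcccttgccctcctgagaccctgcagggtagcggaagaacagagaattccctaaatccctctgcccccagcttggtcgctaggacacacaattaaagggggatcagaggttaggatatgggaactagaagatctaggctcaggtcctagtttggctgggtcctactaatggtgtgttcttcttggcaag
The Tal1 stretch holds 1 GATA match, the Lyl1 stretch 2 ETS matches, the Erg stretch 1 GATA and 1 ETS match, and the Ldb1 stretch 2 GATA matches. GATA letters were present in 3 of the 14 member windows and in 18.6% of all 32851 windows of the same length. ETS letters were present in 6 of 14 windows against 45.2% of all. The RUNX letters TGTGGT and TGCGGT were present in 1 of 14 against 22.4%, and the E-box letters CAGATG and CAGCTG in 2 of 14 against 30.6%. The 2 GATA spellings share the letters GATAA, and CAGCTG reads the same on both strands. These matches describe the letters in these windows and say nothing about binding.

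All 10 members passed the filter on low values and were abundant. Normalized counts, which are read pairs per gene divided by 1 size factor per library, were above those of 82.1% to 99.1% of the 16251 genes with a mean of at least 10. The lowest value of any member rested on 2669 read pairs (Spi1), where counting error is 1.94% of the value. The fewest read pairs of Lmo2 in a library were 20434, where counting error is 0.70%. Libraries held 33143619 to 45140743 read pairs on genes. Proser1 mRNA itself lay between 2019 and 2153 normalized counts in the wild-type libraries and between 2338 and 2464 in those labelled PROSER1 KO (a log2 fold change of 0.19, limma adjusted p = 0.204). It was thus not lower in the KO libraries, and every direction given here rests on the labels. The defining markers of the gate were present in each library, with 25535 to 32357 normalized counts for Kit and 3961 to 6822 for Ly6a, which encodes Sca1. RNA typical of plasma cells was present too, and immunoglobulin genes together with Jchain made up 5.55% to 13.0% of the normalized counts.

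None of the 10 members was differentially expressed between PROSER1 KO and wild-type LSK cells by limma with Benjamini-Hochberg adjustment over all genes (adjusted p under 0.05 and a fold change above 1.5). Of all 16251 genes, 42 passed, which is 0.258%. The lowest adjusted p of a member was 0.459. At an unadjusted p under 0.05 there was 1 member of 10 (Tal1), a share that 9.73% of all genes reached. All KO libraries lay above all wild-type libraries in 1 of 10 members, against 5.17% of all genes, and below them in 0 of 10, against 4.83%. The counts of members are therefore near the background on each measure. DESeq2, the test the authors used, was run on the recovered read pairs without the filter on a mean of at least 10. It called 0.630% of the 26182 genes that had an unadjusted p. Its own default filter can leave genes of low mean without an adjusted p, so this share is not directly comparable with that of limma. edgeR called 0.246% of the 16251 genes. DESeq2 and edgeR both called 0 of the 10 members, and had 2 (Lmo2 and Tal1) and 1 (Tal1) at an unadjusted p under 0.05.

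The data bounded the changes closely. The 95% interval of the fold change lay within 1.5-fold in either direction for 10 of 10 members, against 65.7% of all genes. The outermost interval bounds were -0.27 for Lmo2 and 0.32 for Tal1 on the log2 scale, so that changes beyond these sizes lie outside the intervals. The median log2 fold change was 0.003 over the members and 0.001 over all genes, and the median absolute log2 fold change was 0.018 and 0.095. Libraries of the same group differed less for the members than for the typical gene, with a median within-group SD of 0.0822 against 0.134 on the log2 scale. These measures describe 10 abundant genes, and the background holds genes of every level above the filter.

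**Figure D1:**
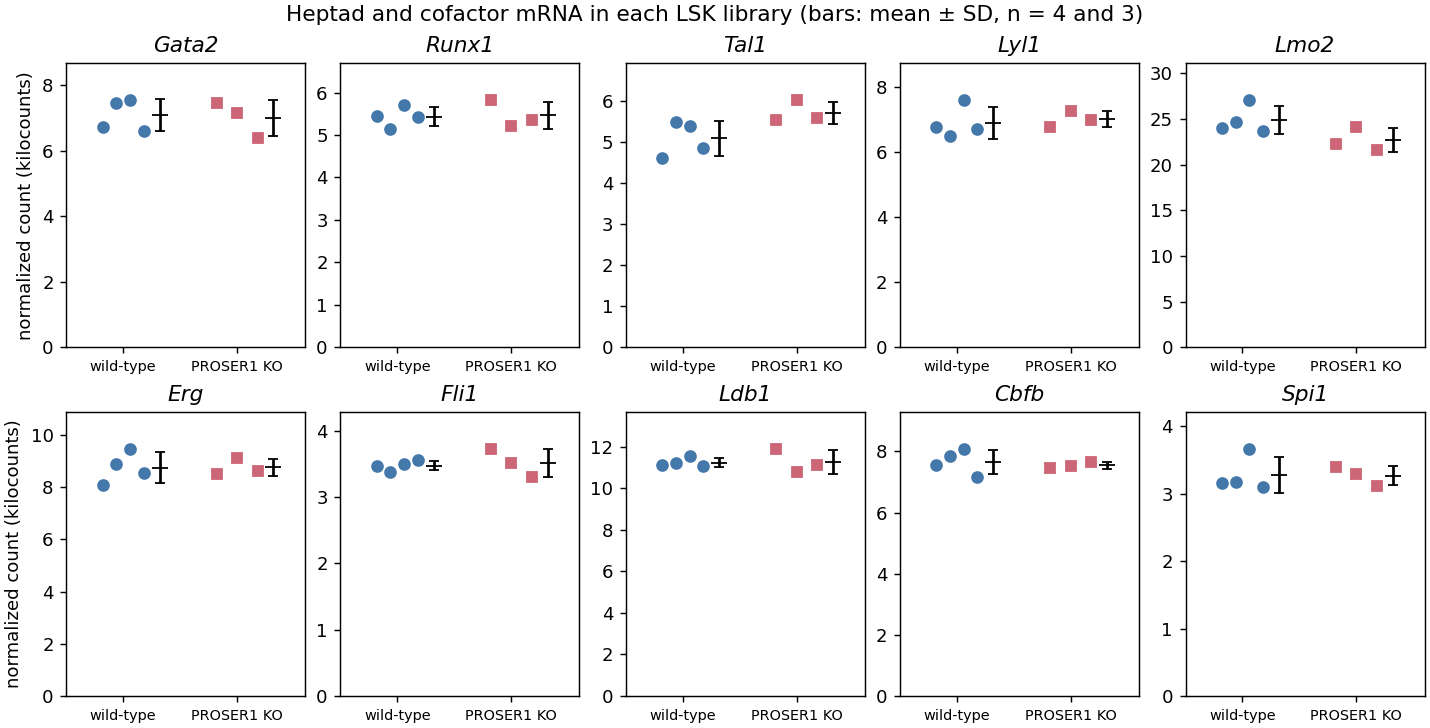
Normalized counts (plotted in kilocounts, vertical axis from 0) of the 10 members in each wild-type library (blue circles, n = 4, replicates 1 to 4 from left to right) and each PROSER1 KO library (red squares, n = 3, replicates 1 to 3), with mean ± SD in black. Tal1 is the panel in which the KO libraries (5542 to 6028) all lie above the wild-type ones (4622 to 5502), and the groups overlap in the other 9 panels.

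Tal1 had the largest fold change of the 10 members. Tal1 (chr4:115056426-115071755, plus strand) measured 4622, 5502, 5403 and 4864 normalized counts in wild-type replicates 1 to 4, while KO replicates 1 to 3 measured 5542, 6028 and 5585. All 3 KO libraries stood above all 4 wild-type libraries, with wild-type replicate 2 and KO replicate 1 the nearest pair, and 5.17% of all genes separated in this direction. The fold was 1.12 (95% interval 1.01 to 1.25), a log2 fold change of 0.17 ± 0.0685 (SE) with an adjusted p = 0.459 by limma, so the difference did not pass the test across all genes. Without wild-type replicate 1 it was 0.12, without wild-type replicate 4 0.15, without KO replicate 2 0.13 and without KO replicate 3 0.18, and in these 4 cases the unadjusted p was not under 0.05.

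Lyl1 (chr8:84701457-84704715, plus strand), which can in part stand in for TAL1 in adult hematopoiesis, measured 6779, 6500, 7598 and 6710 in wild-type and 6784, 7276 and 6993 in KO libraries. The KO values lay inside the wild-type range, with a log2 fold change of 0.03 ± 0.0591 (adjusted p = 0.926, limma). The log2 ratio of Tal1 to Lyl1 was -0.55, -0.24, -0.49 and -0.46 in wild-type and -0.29, -0.27 and -0.32 in KO libraries. Wild-type replicate 2 stood above all KO libraries and the other 3 below them, and the means differed by 0.14 (exact two-sided permutation test over 35 arrangements, p = 0.143, adjusted over 6 ratios 0.514, smallest possible p 0.0286).

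The mRNAs of the bridging proteins of the complex, Lmo2 and Ldb1, did not pass the test. Lmo2 (chr2:103957986-103981878, plus strand) measured 24050, 24703, 27041 and 23689 in wild-type and 22248, 24117 and 21560 in KO libraries. KO replicates 1 and 3 were the lowest of the 7, and KO replicate 2 lay above wild-type replicates 1 and 4, so the groups overlapped. The fold was 0.911, a log2 fold change of -0.14 ± 0.0611 with a 95% interval of -0.27 to 0.00 (adjusted p = 0.519, limma). DESeq2 gave an adjusted p of 0.377 for the same gene, and quantile normalization gave a log2 fold change of -0.087. Ldb1 (chr19:46031570-46045214, minus strand) measured 11104, 11217, 11563 and 11095 in wild-type and 11911, 10803 and 11108 in KO libraries, with KO replicate 1 the highest and KO replicate 2 the lowest of all 7. Its log2 fold change was 0.00 ± 0.0463 (adjusted p = 0.991, limma), the smallest SE among the members. The log2 ratio of Lmo2 to Ldb1 was 1.09 to 1.23 in wild-type and 0.90, 1.16 and 0.96 in KO libraries, a difference of -0.14 (exact permutation test, p = 0.171, adjusted 0.514). Exons of Ldb1 share 177 bases (3.84% of its exon length) with Pprc1 on the opposite strand, and whether read pairs were assigned by strand was not given in the sources used here.

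Gata2 (chr6:88193891-88207032, plus strand), required for the maintenance of HSCs, measured 6738, 7475, 7547 and 6609 in wild-type and 7472, 7140 and 6401 in KO libraries. KO replicate 3 was the lowest of the 7 and the other KO libraries lay among the wild-type values, giving a log2 fold change of -0.02 ± 0.0696 (adjusted p = 0.960, limma). Spi1 (chr2:91082390-91115756, plus strand) measured 3166, 3174, 3668 and 3094 in wild-type and 3398, 3295 and 3115 in KO libraries. Wild-type replicate 3 stood apart from the other 6 libraries, and the group means differed by -0.000214 ± 0.0668 on the log2 scale (adjusted p = 0.999, limma). The log2 ratio of Spi1 to Gata2, the pair known for mutual antagonism, was -1.24 to -1.04 in wild-type and -1.14 to -1.04 in KO libraries (difference 0.02, exact permutation test, adjusted p = 0.914).

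The groups overlapped for the mRNAs of both subunits of core binding factor. Runx1 (chr16:92601466-92826149, minus strand) measured 5448, 5147, 5701 and 5418 in wild-type and 5820, 5207 and 5350 in KO libraries, with a log2 fold change of 0.01 ± 0.0544 (adjusted p = 0.979, limma). Cbfb (chr8:105170674-105217989, plus strand) measured 7542, 7839, 8088 and 7158 in wild-type and 7458, 7510 and 7656 in KO libraries, with all KO values inside the wild-type range (log2 fold change -0.02 ± 0.0498, adjusted p = 0.935, limma). The log2 ratio of Runx1 to Cbfb differed by 0.03 (exact permutation test p = 0.743) and that of Spi1 to Runx1 by -0.01 (p = 0.914), both with an adjusted p of 0.914.

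Erg (chr16:95359169-95586593, minus strand), an ETS factor needed for HSC maintenance, measured 8076, 8875, 9469 and 8539 in wild-type and 8516, 9116 and 8621 in KO libraries, all KO values inside the wild-type range (log2 fold change 0.00 ± 0.0585, adjusted p = 0.990, limma). Fli1 (chr9:32422204-32542861, minus strand), its closest relative and a regulator of megakaryocyte genes, measured 3464, 3386, 3495 and 3560 in wild-type and 3732, 3524 and 3305 in KO libraries. KO replicate 1 was the highest and KO replicate 3 the lowest of the 7 (log2 fold change 0.02 ± 0.0519, adjusted p = 0.951, limma). The log2 ratio of Erg to Fli1 lay between 1.22 and 1.44 in wild-type and between 1.19 and 1.38 in KO libraries (difference -0.01, exact permutation test p = 0.886, adjusted 0.914).

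**Figure D2:**
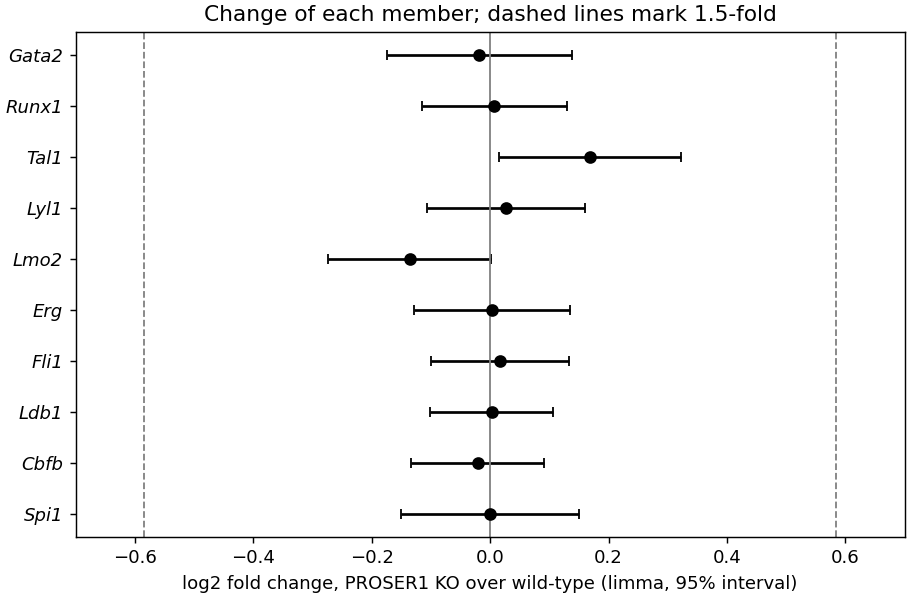
Log2 fold change of each member, PROSER1 KO over wild-type (horizontal axis), with the 95% interval of limma (bars); dashed lines mark 1.5-fold in either direction. Tal1 (0.17) and Lmo2 (-0.14) lie farthest from 0, and all 10 intervals stay inside the dashed lines.

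Levels were compared between genes per kilobase of exon, the union of annotated exons on GRCm38. In wild-type LSK cells Lmo2 was the highest at 11482 ± 696 normalized counts per kb (SD, n = 4), followed by Lyl1 at 3831 ± 268. Erg (2522 ± 169), Ldb1 (2441 ± 47.6) and Cbfb (2200 ± 115) came next. Gata2 (1314 ± 90.3), Spi1 (1215 ± 98.0) and Tal1 (1164 ± 96.6) formed a group of similar level, above Fli1 (997 ± 20.8) and Runx1 (451 ± 18.8). The ranges of neighbours in this order overlapped for Erg and Ldb1, for Gata2 and Spi1, and for Spi1 and Tal1, and not for the other 6 neighbouring pairs. The order in KO libraries differed at 3 ranks within the overlapping group, where Tal1 measured 1306 ± 61.5, Gata2 1298 ± 102 and Spi1 1213 ± 53.0 per kb (SD, n = 3). Gata2 and Tal1 overlapped in the KO libraries (1186 to 1384 and 1266 to 1377), and Spi1 (1156 to 1261) lay below Tal1. Runx1 has the longest exon union of the members (12.02 kb). With the length of the longest transcript its wild-type level was 926 per kb, still the lowest of the 10, and Ldb1 (3589) then stood above Erg (2690).

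**Figure D3:**
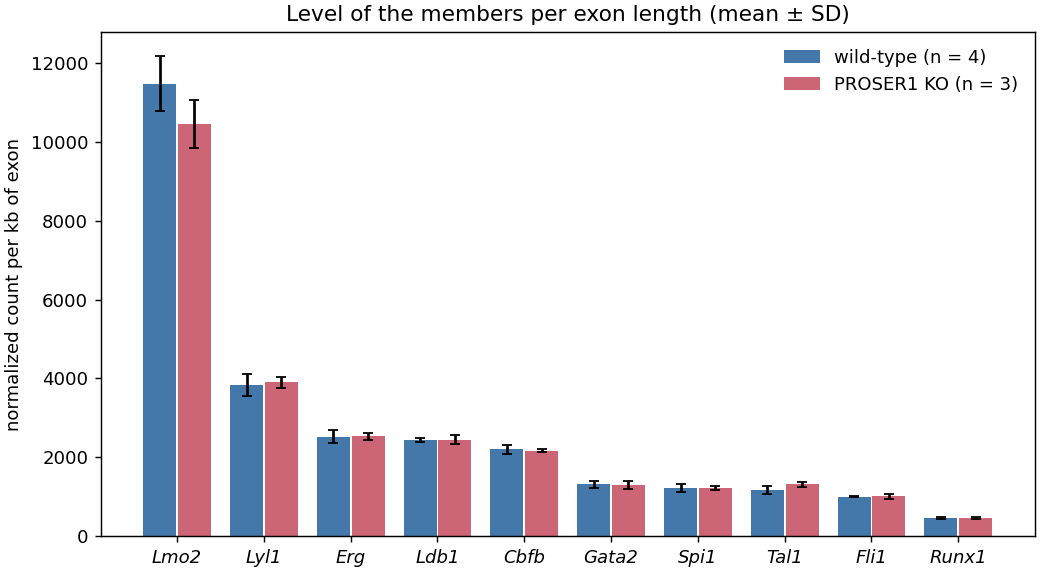
Normalized count per kb of exon (vertical axis from 0) of each member in wild-type (blue, n = 4) and PROSER1 KO (red, n = 3) libraries, bars as means and whiskers as SD, ordered by the wild-type mean. Lmo2 stands at 11482 per kb in wild-type, and Gata2, Spi1 and Tal1 lie within 1164 to 1314.

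Read by library, the highest values of the members fell mostly in 1 wild-type library. Wild-type replicate 3 had the highest value in 6 of the 10 members and lay a median of 0.09 above the wild-type mean on the log2 scale. KO replicate 1 was the highest in 3 members (median deviation 0.07), and KO replicate 3 the lowest in 3 (-0.02). Wild-type replicate 4 had the lowest median deviation (-0.05). The same 2 wild-type libraries were at the ends of the share of immunoglobulin and Jchain counts. It was 5.55% in wild-type replicate 3, 6.28% in KO replicate 2, 7.44% in KO replicate 1, 7.66% in wild-type replicate 2, 9.22% in wild-type replicate 1, 9.40% in KO replicate 3 and 13.0% in wild-type replicate 4. The summed plasma cell markers (Jchain, Sdc1, Xbp1, Prdm1, Tnfrsf17) lay between 165947 and 415191 in wild-type and between 195054 and 290648 in KO libraries, and all 5 markers were detected in every library. In bulk samples fewer cells of a type and less RNA per cell cannot be told apart. With the log2 of this share as a covariate, an alternative chosen after the values were seen, the log2 fold change was 0.14 for Tal1 (adjusted p = 0.395) and -0.16 for Lmo2 (adjusted p = 0.196), both by limma, and 0 of 10 members were called.

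**Figure D4:**
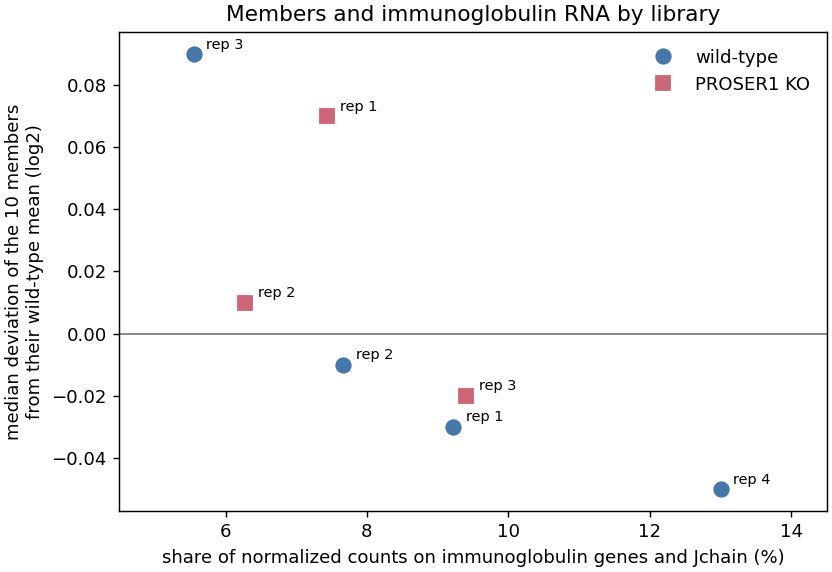
Median deviation of the 10 members from their wild-type mean (log2, vertical axis) against the share of normalized counts on immunoglobulin genes and Jchain (percent, horizontal axis) in each wild-type (blue circles) and PROSER1 KO (red squares) library, labelled by replicate number. Wild-type replicate 3 (5.55%) lies at 0.09 and wild-type replicate 4 (13.0%) at -0.05.

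Markers of other cells that can express members were read beside them. Endothelial cells also use Tal1, Erg, Fli1, Lmo2 and Gata2. The summed endothelial markers (Cdh5, Kdr, Emcn, Plvap, Tek) were 2110 to 2514 in wild-type and 2229 to 2942 in KO libraries, with a positive log2 fold change in 5 of 5 and 0 called. Emcn and Tek (927 to 1162 over all 7 for Tek) together held most of this sum. Emcn measured 688 to 806 in wild-type and 859 to 1077 in KO libraries (log2 fold change 0.36, adjusted p = 0.233, limma), while Cdh5, which defines the endothelium, measured 33.4 to 258 over all 7. The summed megakaryocyte markers (Pf4, Gp9, Gp1bb, Ppbp, Vwf) were 1644 to 3448 in wild-type and 3256 to 5223 in KO libraries, with a positive log2 fold change in 5 of 5 and 0 called. Vwf held most of this sum (1103 to 2914 in wild-type and 2509 to 4231 in KO libraries), and the other 4 markers together were 535 to 671 in wild-type and 992, 747 and 481 in KO libraries, with KO replicate 3 the lowest of the 7. The highest value was in KO replicate 3 for the endothelial sum, in KO replicate 1 for the megakaryocyte sum and in KO replicate 2 for Tal1, and the part of these cells in the Tal1 values was not tested. In bulk samples it cannot be told which cells, LSK cells themselves included, held the endothelial and megakaryocyte marker RNA. Of the 6 erythroid markers, 5 passed the filter on low values, and the sum of all 6 was 273 to 504. The summed mast cell and basophil markers, cells that use Gata2, were 1082 to 1339 in wild-type and 1130 to 1210 in KO libraries. Within this list Mcpt8, a basophil protease, was lower in all KO libraries (163 to 242 in wild-type, 80.6 to 158 in KO, log2 fold change -0.83, adjusted p = 0.280, limma). Cpa3, a mast cell protease, was higher in all of them (589 to 736 and 749 to 792, 0.23, adjusted p = 0.488, limma), and neither was called. Separation with KO below wild-type, as for Mcpt8, was seen in 4.83% of all genes. Separation with KO above, as for Cpa3 and Emcn, was seen in 5.17%. The T and innate lymphoid sum was highest in KO replicate 1 (2432), which also held 697 normalized counts of Cd3g against 20.9 to 52.9 in the other 6. Granulocyte and monocyte markers summed to 17559 to 21272 over the 7 libraries, and Mpo held most of this sum (14897 to 19269). Ltf (110 to 1077), S100a8 (160 to 1047) and Camp (77.7 to 400) of the same list varied more. All 3 were highest in wild-type replicate 1 and next in KO replicate 3, and their part in the member values was not tested. B-lineage markers summed to 1641 to 3958 over the 7 libraries. Stem and multipotent progenitor markers summed to 78194 to 88993, highest in wild-type replicate 3. In the stem and progenitor list 4 log2 fold changes were positive and 4 negative, with 0 called. Mecom was lower in all KO libraries (2683 to 3030 in wild-type, 2160 to 2610 in KO, -0.25, adjusted p = 0.282, limma). Of all genes, 4.83% separated in this direction. Slamf1 lay farthest the other way, with overlap (0.28, adjusted p = 0.559, limma).

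Partners, relatives and targets of the members were taken from 5 lists with 58 genes, of which 55 passed the filter. None was called by limma (background 0.258%), 4 of 55 had an unadjusted p under 0.05 (background 9.73%), and the median log2 fold change was 0.026 (0.001 over all genes). Among the 11 partners in the LDB1 and E protein complexes, 0 were called, 7 values were positive and 4 negative, the median was 0.02, and all 11 intervals stayed within 1.5-fold. The lowest unadjusted p there belonged to Lmo4, a LIM-only protein that competes for LDB1 (1953 to 2152 in wild-type, 1767 to 2004 in KO, log2 fold change -0.12, adjusted p = 0.569, limma). It was followed by Ssbp3, which stabilizes LDB1 (3098 to 3341 and 2939 to 3313, -0.08, adjusted p = 0.695, limma). The E proteins Tcf3, Tcf4 and Tcf12, the pairing partners of TAL1 and LYL1, had log2 fold changes of 0.03, 0.05 and 0.04.

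The ID proteins sequester E proteins and so restrain bHLH factors, and this list held the largest absolute fold changes of the 5 lists. Id2 measured 1104, 720, 640 and 660 normalized counts in wild-type libraries, against 523, 441 and 459 in KO libraries. All KO libraries lay below all wild-type libraries, a separation that 4.83% of all genes showed in this direction, and wild-type replicate 1 stood well above the rest. The log2 fold change was -0.69 ± 0.177 with an adjusted p = 0.213 by limma, and DESeq2 gave an adjusted p of 0.00177 and called it. Id2 is also expressed by innate lymphoid cells. The 6 T and innate lymphoid markers summed to 1377 to 2172 in wild-type and 1257 to 2432 in KO libraries, with 2 positive and 4 negative log2 fold changes and 0 called. Gata3, listed here also as a relative of the members, was the largest part of this sum (960 to 1589 over the 7 libraries). Ncr1 measured 275, 140, 134 and 75.4 in wild-type and 147, 49.9 and 62.4 in KO libraries, highest in wild-type replicate 1 as Id2 was. Cd4 separated with KO below wild-type as Id2 did (200 to 287 and 113 to 191, log2 fold change -0.61, adjusted p = 0.374, limma). Cd3e (1.27) and Cd3g (1.61) went the other way, both highest in KO replicate 1. The part of cells with these markers in the Id2 values was not tested. Id1 (3.45 to 24.0 in wild-type, 22.9 to 30.5 in KO) and Id3 (18.9 to 44.1 and 22.0 to 44.9) were low, with log2 fold changes of 0.95 (adjusted p = 0.651, limma) and 0.32, and Id4 did not pass the filter. Id1 was 0.41 without wild-type replicate 3, where it measured 3.45, and 0.70 by edgeR and 0.71 by DESeq2.

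Of 14 relatives of the members, 12 passed the filter and 0 were called (median -0.022, 4 positive and 8 negative). Lmo1, the LIM-only relative of Lmo2, measured 93.3, 104, 75.9 and 86.9 in wild-type and 75.1, 61.8 and 52.8 in KO libraries (log2 fold change -0.51, adjusted p = 0.466, limma). The highest KO value lay just below the lowest wild-type value, a separation that 4.83% of all genes showed in this direction. No library held more than 104 counts of Lmo1. Runx3 had a log2 fold change of -0.12 (adjusted p = 0.550, limma). Gata1, the erythroid partner that replaces GATA2 during red cell formation, measured 383 to 477 in wild-type and 316 to 537 in KO libraries with a log2 fold change of 0.00. Tal2 (0 to 15.1 normalized counts) and Lmo3 (0 to 3.45) did not pass the filter, and a count of 0 allows up to 2.54 to 3.48 normalized counts in these libraries (3 read pairs, counting error only).

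Known targets of the factors were read from the last 2 lists. Of 17 stem cell and megakaryocyte-erythroid targets, 0 were called, with 10 positive and 7 negative values and a median of 0.041. Itga2b, the megakaryocyte integrin CD41, measured 4627, 5684, 5418 and 5090 in wild-type and 6803, 6302 and 5425 in KO libraries, an overlap by KO replicate 3 (log2 fold change 0.24, adjusted p = 0.404, limma). Gfi1b, which encodes a repressor of transcription that acts in the same lineages, had -0.24 (adjusted p = 0.594). Klf1, the erythroid master regulator, had 0.49 at 33.7 to 158 counts (adjusted p = 0.749), both by limma. Klf1 was 0.10 without wild-type replicate 1, 0.22 without KO replicate 1 and 0.75 without KO replicate 3. Kit, Cd34 and Meis1 had log2 fold changes of -0.07, -0.01 and -0.08. Of 12 targets of PU.1 and RUNX1, 0 were called, with 9 positive and 3 negative values and a median of 0.053. Csf1r, the receptor for macrophage colony-stimulating factor, measured 592, 424, 511 and 631 in wild-type and 870, 657 and 708 in KO libraries, without overlap (log2 fold change 0.47, adjusted p = 0.334, limma). Btk was without overlap as well, at 5292 to 5644 in wild-type and 5678 to 5726 in KO libraries (log2 fold change 0.07, adjusted p = 0.605, limma), so that 2 of 12 targets separated with KO above wild-type, against 5.17% of all genes. Flt3, Mpo and Cebpa had log2 fold changes of 0.09, -0.03 and 0.02.

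**Figure D5:**
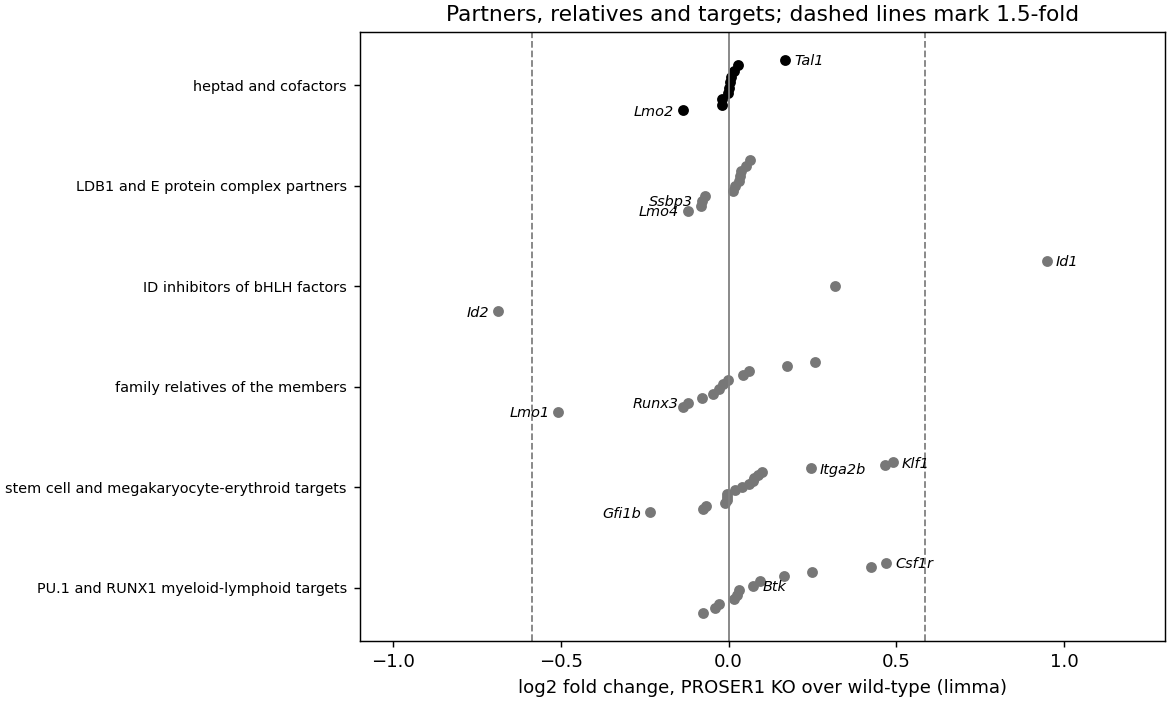
Log2 fold change, PROSER1 KO over wild-type (horizontal axis), of the 10 members (black) and of the 55 tested partners, relatives and targets (grey), 1 point per gene in rows by list; dashed lines mark 1.5-fold. Id2 (-0.69) and Id1 (0.95, or 0.41 without wild-type replicate 3) are the points outside the dashed lines, and the members lie between -0.14 and 0.17.

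Finally, each member was matched to the gene with the most similar profile among the other members and the list genes (64 genes compared, 7 libraries). The measure was the root mean square difference of log2 values centred on their means, given without a test since all genes share libraries and size factors. Erg was nearest to Nfe2, a megakaryocyte-erythroid factor (0.011), and Lyl1 to Cebpa, the myeloid factor (0.0181). Fli1 (0.0286) and Ldb1 (0.0312) were both nearest to the E protein gene Tcf3, and Runx1 to Ldb1 (0.0325). Cbfb was nearest to Etv6 (0.035), Lmo2 to Zfpm1, which encodes the GATA cofactor FOG1 (0.0415), Spi1 to Hhex (0.0498) and Gata2 to Ssbp4 (0.0572). Tal1 had the most distant neighbour, Erg at 0.0907, and the widest profile of the 10, with an SD of 0.12 over the 7 libraries.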

How the data were processed

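The 4 wild-type and 3 PROSER1 KO libraries of LSK cells were grouped by their labels. The authors used Trimmomatic for trimming, STAR for mapping (mm10) and featureCounts for counts of read pairs, and deposited these counts after division by a DESeq2 size factor for each library, a normalized signal with no filter. The smallest step of a library gave back whole read pairs (100% of values within 0.01), 33143619 to 45140743 per library on genes.

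For the comparison of the groups, limma 3.58.1 (R 4.3.3, eBayes with trend) was run on log2(normalized count + 1). Genes needed a mean of at least 10 (16251 genes), and fold changes are differences of means on this scale, where the pseudocount shrinks those of low genes. Calls needed an adjusted p under 0.05 (Benjamini-Hochberg) and a fold change above 1.5. Ratios of members were tested by exact permutation, two-sided. edgeR 4.0.16 and DESeq2 1.42.0 on recovered read pairs, other pseudocounts, filters and normalizations, the replicate number as a block and omission of each library were alternatives. The limma, edgeR and DESeq2 fits were run on simulated data with planted changes larger than those of the members and the same dispersion for all genes. That run checked the code and does not bear on changes as small as those of the members.

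Exon lengths and positions came from GENCODE release M21 (GRCm38), which held 48058 of the 48440 gene IDs, and promoters from RefSeq. The members and the 5 pathway and 10 marker lists were chosen with earlier results of these data known. Named were all members and from each list the 2 genes with the lowest unadjusted p and the gene with the largest absolute log2 fold change. Other list genes and markers with values were singled out after these were seen.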

Additional observations from a re-analysis of the deposited data

Results flagged for a closer look

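Of 27 sets of wild-type values tested for a sample far from the others (Dixon's ratio of the gap to the range, at its 95% critical value), 1 was flagged, and chance flags about 1 in 20. Spi1 measured 3668 normalized counts in wild-type replicate 3 against 3094 to 3174 in the other 3 wild-type libraries. Wild-type replicate 3 was also the library with the highest value in 6 of the 10 members and with the lowest immunoglobulin share (5.55%).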

How the results depend on the processing

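None of the 10 members was called under any of the 20 alternatives run for each. The adjusted p ranged from 0.341 to 0.708 for Tal1 and from 0.196 to 0.738 for Lmo2, and both kept their direction throughout, at 0.12 to 0.21 and -0.18 to -0.094 without 1 library and at 0.14 to 0.17 and -0.16 to -0.087 otherwise. At an unadjusted p under 0.05 stood Lmo2 and Tal1 with DESeq2, with robust variance estimates and with the immunoglobulin share as a covariate, Lmo2 alone without wild-type replicate 4 or KO replicate 2, and no member without the trend, without wild-type replicate 1 or without KO replicate 3. The other 8 members have log2 fold changes near 0 and changed sign when 1 library was left out, with ranges of -0.067 to 0.045 (Gata2), -0.04 to 0.041 (Runx1), -0.001 to 0.074 (Lyl1), -0.034 to 0.043 (Erg), -0.026 to 0.061 (Fli1), -0.037 to 0.033 (Ldb1), -0.052 to 0.006 (Cbfb) and -0.028 to 0.055 (Spi1). Among the ratios the same held for Spi1/Gata2 (-0.022 to 0.043), Erg/Fli1 (-0.049 to 0.049), Runx1/Cbfb (-0.027 to 0.059) and Spi1/Runx1 (-0.047 to 0.024).

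Over all genes 17 were called without the trend, 80 with robust variance estimates, 165 with DESeq2 and 23 to 42 without 1 library (23 without KO replicate 2), against 42. DESeq2 called 1 gene of the pathway lists (Id2). The cause was not tested. The longest transcript as gene length put 2 members at another rank, and leaving out 1 library put 0 to 4 at another rank within their group (4 without KO replicate 2, 2 without KO replicate 3).

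Same-numbered libraries of the groups correlated at 0.023, 0.058 and -0.106 in their deviations, so the numbers were not taken to pair them. With a replicate block 35 genes and 0 members were called, Tal1 had 0.15, and Erg (-0.007) and Ldb1 (-0.004) changed sign. Wild-type replicate 4 has no KO library of its number, so the block takes it out of the group difference. These 3 values are therefore the same as without that library. Erg and Ldb1 also changed sign with the immunoglobulin covariate (-0.017 and -0.002), which was chosen after seeing the data. Depth does not limit the members, whose lowest value rests on 2669 read pairs, but limits Id1, Id4, Tal2 and Lmo3.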
